A study of Mus musculus with 9 samples.

Results

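The genes described here are 41 mouse genes, Myc, Mycn and 39 genes of ribosome biogenesis, taken by name from a list and looked up in a table of 14461 genes measured in LSK cells. All 41 were present in the table and all 41 passed the filter on low values, a deposited value no lower than 1 in 3 or more libraries, and 13771 genes in all were tested. LSK cells, a bone marrow population rich in blood stem cells and early progenitors, lack lineage markers and carry Sca-1 and c-Kit. They were sorted from the marrow of parabiotic mice, pairs of animals joined by surgery so that blood passes between them, and the series asks how LSK cells that reached the marrow of an irradiated partner through the blood differ in expression. The 9 libraries form 3 groups of 3 replicates. The circulating LSK cells and the irradiated LSK cells carry the strain label C57BL/6, the endogenous LSK cells the strain label B6SJL CD45.1, and all animals were kept specific pathogen free. The label that names the strain therefore changes together with the group in every comparison with endogenous cells, and the effects of strain and group cannot be told apart there. The sample names also hold a code that is the same for circulating and for endogenous libraries but another one for all irradiated libraries, so this code and irradiation cannot be told apart either. A further code in the names is common to the circulating and the irradiated library of each replicate number and differs in endogenous libraries, and what it stands for is not stated. The labels do not say from which partner each group was sorted, give neither a radiation dose nor the time between surgery and sorting, and do not tell which libraries, if any, share an animal. The p-values accordingly cover the spread of these samples only, and that spread may be technical.

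Ribosomes are assembled in the nucleolus. RNA polymerase I transcribes a precursor ribosomal RNA there, small nucleolar ribonucleoproteins (snoRNPs) guide the chemical modification of its nucleotides, and large groups of assembly factors cut, fold and package it into a small and a large subunit. MYC, a transcription factor that binds DNA as a dimer with MAX at the E-box CACGTG, is known as an activator of many of these genes. In blood-forming stem and progenitor cells, MYC and its relative MYCN are known to support proliferation, and adult stem cells are known for low protein synthesis.

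The deposited values are normalised signals (estimated counts over a scaled library size), and values below are in that unit unless a log2 difference is named. The recovered estimated counts total between 14065855 and 27012345 per library. Circulating libraries varied most: the median SD of a member on the log2 scale was 0.31 in circulating cells, 0.19 in irradiated cells and 0.18 in endogenous cells. The genes of the sort were present in every library. Ly6a, which encodes Sca-1, averaged 137 ± 9.21 in circulating cells, 174 ± 23.9 in irradiated cells and 180.0 ± 12.8 in endogenous cells (SD, n = 3 each). Kit, which encodes c-Kit, averaged 379 ± 45.1, 587 ± 31.3 and 878 ± 137 in the same order of groups, and was lower in circulating than in endogenous cells (limma, log2 fold change -1.20, adjusted p = 0.00257).

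Circulating LSK cells held more RNA of several ribosome biogenesis genes than endogenous LSK cells, while Mycn was lower and Myc had a log2 fold change of -0.0042. Of the 41 members, 6 rose (Npm1, Ncl, Nhp2, Fbl, Ltv1 and Wdr75), 1 fell (Mycn) and 34 did not pass an adjusted p of 0.05 in limma's test across all genes. Among all 13771 genes tested 8.63% were called, 5.33% as higher and 3.3% as lower, and the 7 called members make up 17.1% of the list. Before adjustment, 41.5% of the members and 26.7% of all genes had a p under 0.05 in limma, and of these 17 members 15 were higher and 2 lower. The median log2 fold change was 0.26 over the members and -0.04 over all genes, and 30 of 41 members had a positive value. The 3 libraries of each group did not overlap, with circulating cells higher, for 14 members (34.1%), against 14.6% of all genes, and with circulating cells lower for 1 member (2.44%), against 12.9% of all genes. The adjusted p-values of the 7 called members lie between 0.0287 and 0.0487, close to the threshold. When only circulating and endogenous libraries were fitted, none of the 41 members was called by limma, so no call was made without the irradiated libraries in the estimate of spread. With scaling by library size alone the members' calls became 0 higher and 1 lower, those over all genes 337 higher and 816 lower in place of 734 and 455, and the median log2 fold change of all genes shifted by -0.18.

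**Figure D1:**
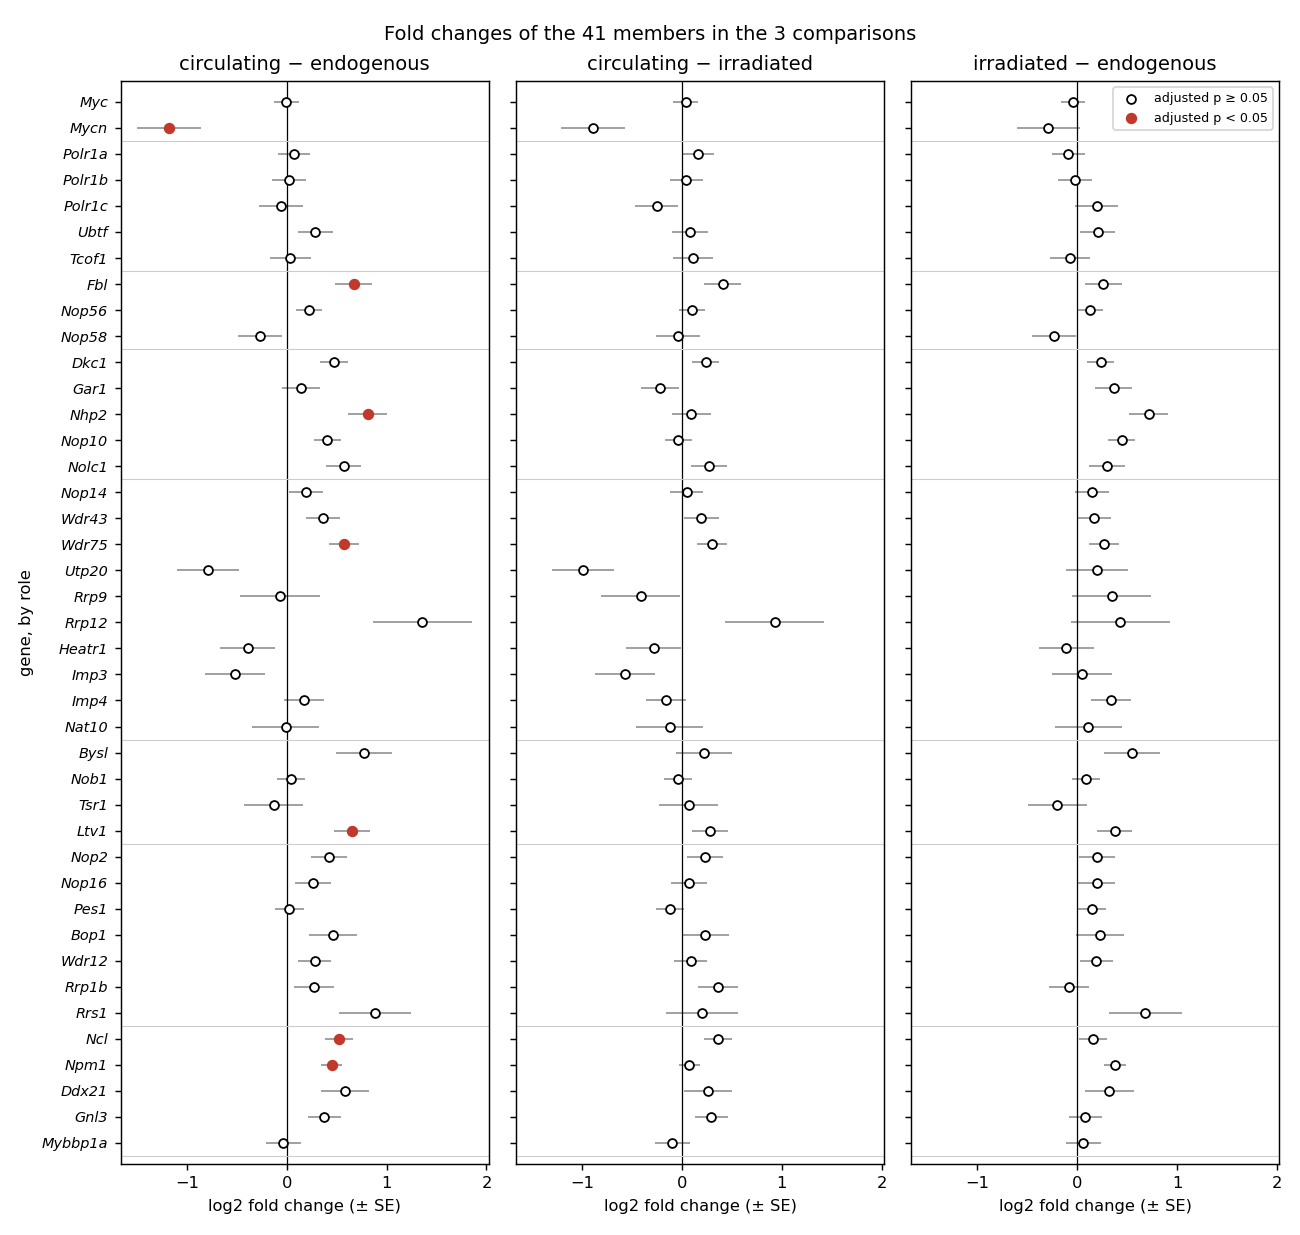
Log2 fold change ± standard error of each of the 41 members (down the page, in groups by role) in circulating against endogenous, circulating against irradiated and irradiated against endogenous cells, from left to right, with filled points for an adjusted p under 0.05. The 7 filled points all lie in the left panel, with Mycn at -1.18 and Nhp2, at 0.81, the highest of the 6 that rose.

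The plot of fold changes shows the members' values leaning to the right of 0 in the comparisons with endogenous cells, with standard errors widest for weakly expressed genes such as Rrp12, Rrp9 and Rrs1. In bulk samples such as these, fewer cells of a type and less RNA per cell cannot be told apart. Signal per kilobase of merged exon differed widely between members. Merged exons take in every annotated exon of a gene and can be longer than any single transcript. The order of genes on this scale therefore depends on the annotation too. Averaged over the 9 libraries it was highest for Npm1 at 369.6, Nop10 at 214, Nop56 at 163 and Myc at 147. It was lowest for Utp20 at 2.20, Polr1a at 5.29 and Rrp12 at 5.64.

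Myc (chromosome 15, 61985391 to 61990374, GRCm38), the family member known for driving growth genes in dividing cells, stood at 467, 379 and 363 in circulating, 374, 401 and 395 in irradiated and 432, 363 and 413 in endogenous cells. The 3 groups overlapped. Its log2 fold change was -0.0042 (SE 0.12) in circulating against endogenous cells, with an adjusted p of 0.989 in limma and a 95% interval of -0.27 to 0.27. The intervals for circulating against irradiated cells, -0.23 to 0.31, and for irradiated against endogenous cells, -0.31 to 0.23, are of like width by construction. The fit took a single spread per gene over all libraries, so the SE of Myc was 0.12 in each comparison. The SD of the Myc values themselves was 14.1 among irradiated, 35.9 among endogenous and 55.9 among circulating libraries.

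Mycn (chromosome 12, 12936093 to 12941914) encodes N-MYC, which can stand in for MYC in blood stem cells. It stood at 45.9, 69.4 and 23.2 in circulating, 88.9, 77.8 and 71.0 in irradiated and 117, 83.5 and 91.9 in endogenous cells. Each circulating library was below every library of the other groups, and circulating replicate 3 was the lowest of all. Mycn fell by 1.18 on the log2 scale in circulating against endogenous cells (SE 0.32, limma, adjusted p = 0.0431), and 10 of 19 alternatives kept the call. Without circulating replicate 3 the log2 fold change was -0.77 and the adjusted p in limma 0.0773, and the call was also lost without any one irradiated or endogenous library. Against irradiated cells its log2 fold change was -0.89 ± 0.32, with an adjusted p of 0.349 in limma. Per kilobase, Myc averaged 147 and Mycn 22.6.

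**Figure D2:**
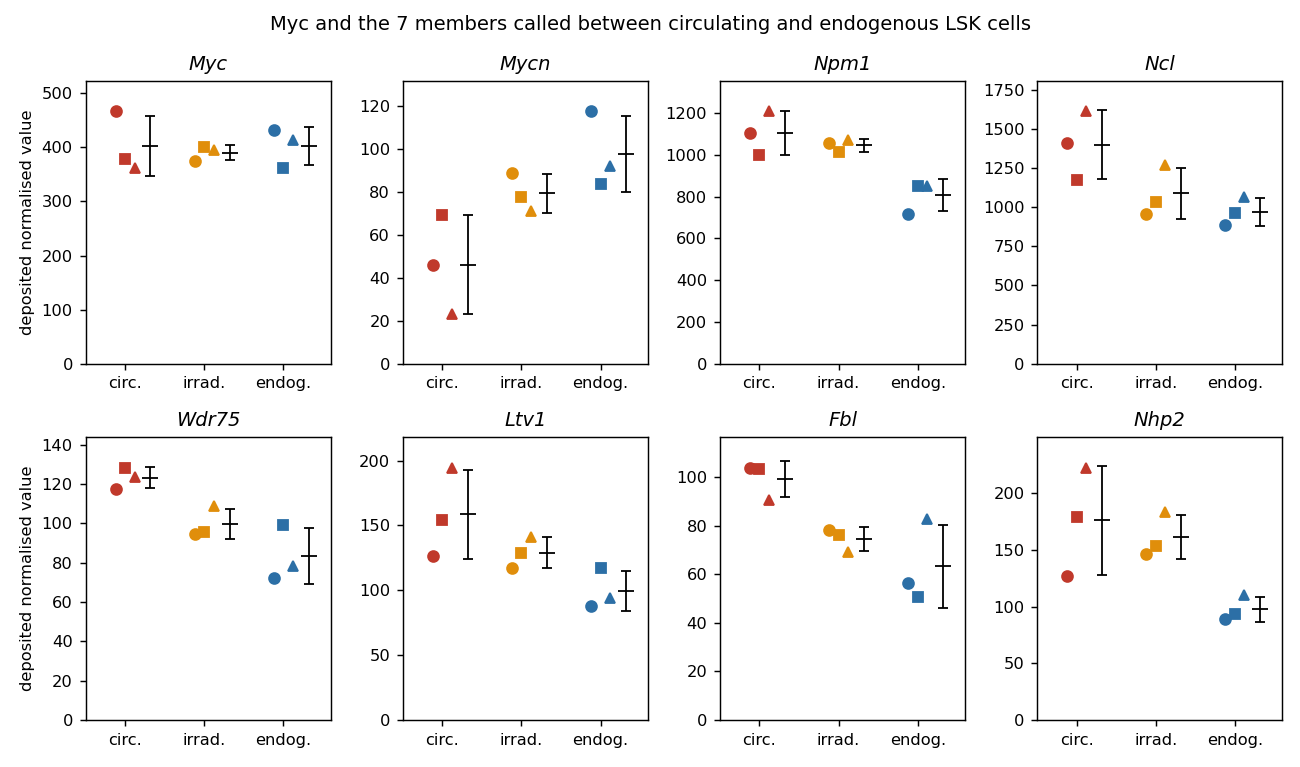
Deposited normalised value (linear axis from 0) of Myc and of the 7 members called between circulating and endogenous cells, in each library by group (circ., circulating; irrad., irradiated; endog., endogenous). Circles, squares and triangles are replicates 1, 2 and 3, the black dash and bar are the mean ± SD, and for the 7 called members, unlike Myc, every circulating library lies on one side of all 3 endogenous libraries.

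The plot of Myc and the called members shows the irradiated libraries between the other groups in most panels, near the circulating ones for Npm1 and Nhp2 and near the endogenous ones for Ncl. None of these members was called between irradiated and endogenous cells.

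Among the partners and antagonists of MYC, the genes that passed the test were lower in circulating cells. Of 16 genes of the MYC network listed and measured in the comparison of circulating with endogenous cells 3 fell, none rose and 13 were not called, and their median log2 fold change was -0.12. The 3 that fell make up 18.75% of the network list, against 3.3% of all genes called lower. Max, the obligate dimer partner of MYC and of its antagonists, stood at 9.53, 11.1 and 9.32 in circulating, 21.0, 29.2 and 23.4 in irradiated and 72.1, 55.1 and 23.3 in endogenous cells. Every circulating library was below every other library, and endogenous replicate 3 lay within the irradiated range, far from the other 2 endogenous libraries. Its log2 fold change was -2.08 ± 0.36 (SE) against endogenous cells, with an adjusted p of 0.0103 in limma, and it was called under each of the 19 alternative settings and left-out libraries tried. Mnt, a repressor that binds MAX, stood at 3.65, 1.09 and 2.07 in circulating, 4.57, 6.48 and 6.06 in irradiated and 8.55, 5.76 and 11.6 in endogenous cells, again lowest in circulating cells with no overlap. It had a log2 fold change of -1.59 ± 0.40 and an adjusted p of 0.035 in limma, on values that are low throughout, and 8 of 19 alternatives kept the call. Mga, a large MAX-binding protein of a repressive complex, stood at 95.4, 94.1 and 69.6 in circulating, 72.4, 79.2 and 78.7 in irradiated and 117, 141 and 134 in endogenous cells. Circulating and irradiated cells shared a range below all endogenous libraries, and the log2 fold change was -0.60 ± 0.16 in circulating against endogenous cells (limma, adjusted p = 0.0422), a call kept by 9 of 19 alternatives. Without circulating replicate 3, 1 of the 16 network genes rose and 1 fell.

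**Figure D3:**
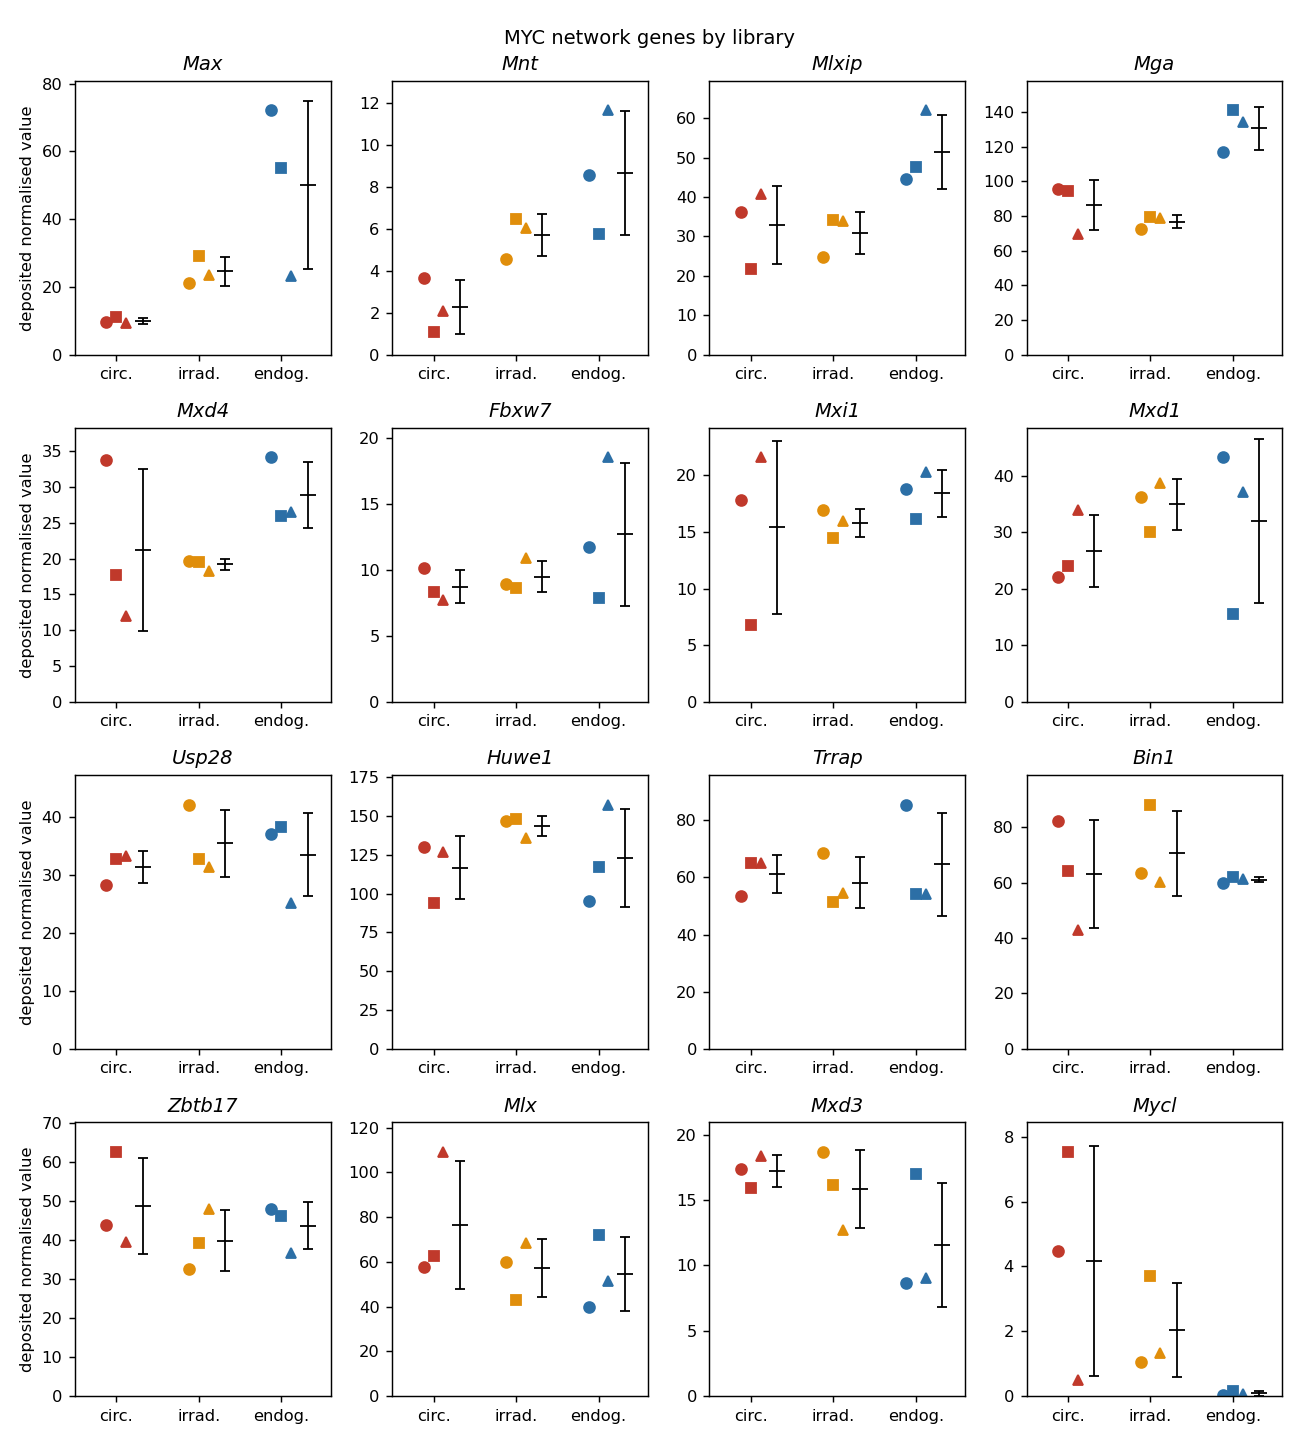
Deposited normalised value (linear axis from 0) of 16 genes of the MYC network in each library by group, ordered by log2 fold change of circulating against endogenous cells, with markers as replicates 1 (circle), 2 (square) and 3 (triangle) and the mean ± SD in black. Max, Mnt and Mga passed the test, and Mycl, last in the order, stayed at or below 7.55 in every library.

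Mycl, the remaining MYC family gene, had the highest log2 fold change of the network at 1.93 ± 0.58 in circulating against endogenous cells, but was not called (limma, adjusted p = 0.0622). Its values were 4.46, 7.55 and 0.481 in circulating, 1.06, 3.70 and 1.33 in irradiated and 0.0195, 0.154 and 0.058 in endogenous cells. The plot of the MYC network shows that its values in endogenous cells are near those of a count of 0, which is 0.0182 to 0.0376 in this unit. Most other panels overlap between groups.

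The E-box that MYC and MAX bind, CACGTG, was looked for as that exact run of letters, which reads the same on both strands, in windows from 250 bases before to 50 bases after each gene start (RefSeq, GRCm38.p6). Of the 41 members, 34 had a window and 8 of these, 23.5%, held the motif. A gene was counted once, as holding the motif if any of its windows did, and some genes have several windows. By that count it was found in 11.8% of the 9915 tested genes with a window and in 8.09% of all 27025 genes with a window. Among other listed pathway genes outside the MYC network 30 of 130 with a window held it, 23.1%, and in the MYC network 4 of 15, 26.7%. A match is a description of the letters and does not show binding, and nothing follows about genes without one. Bop1, Rrp12, Tcof1, Npm1, Fbl, Rrs1 and Myc had no window in the table used. The motif and up to 12 bases on either side, clipped where the window ends, are printed 5′ to 3′ on the strand of the gene with the motif in capitals, for the 8 members and for the called network genes Max and Mnt, because these are the places where the pathway's letters can be read beside the values.
Ltv1: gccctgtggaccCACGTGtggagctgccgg
Imp4: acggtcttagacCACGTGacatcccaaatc
Nop2: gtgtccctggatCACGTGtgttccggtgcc
Utp20: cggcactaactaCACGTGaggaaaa
Pes1: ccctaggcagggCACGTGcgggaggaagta
Mybbp1a: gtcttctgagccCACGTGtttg
Tsr1: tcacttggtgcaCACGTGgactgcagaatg
Wdr43: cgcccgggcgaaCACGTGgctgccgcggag
Max: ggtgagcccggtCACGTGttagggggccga
Mnt: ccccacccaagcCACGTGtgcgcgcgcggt
Ltv1 is the only called member with the motif among those with a window, at chr10:13193092-13193121 on the minus strand, 28 bases past the gene start. The others are Imp4 at chr1:34439696-34439725 on the plus strand, Nop2 at chr6:125131811-125131840 on the plus strand, Utp20 at chr10:88826765-88826789 on the minus strand, Pes1 at chr11:3963965-3963994 on the plus strand, Mybbp1a at chr11:72441355-72441376 on the plus strand, Tsr1 at chr11:74898092-74898121 on the plus strand and Wdr43 at chr17:71616220-71616249 on the plus strand. The 2 network sites shown are Max at chr12:76962234-76962263 on the minus strand and Mnt at chr11:74830789-74830818 on the plus strand. The log2 fold changes of the 8 members in circulating against endogenous cells run over both signs, with Utp20 at -0.79, Tsr1 at -0.13, Mybbp1a at -0.04, Pes1 at 0.03, Imp4 at 0.17, Wdr43 at 0.36, Nop2 at 0.42 and Ltv1 at 0.66.

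Of the RNA polymerase I genes, none of 5 was called by limma in circulating against endogenous cells, none had an unadjusted p under 0.05, voom called none either, and their median log2 fold change was 0.04 (-0.17 with scaling by library size alone). Ubtf, which encodes the factor that holds ribosomal DNA open for this polymerase, stood at 115, 122 and 161 in circulating, 122, 107 and 146 in irradiated and 99.3, 98.0 and 127 in endogenous cells. The groups overlapped, replicate 3 was the highest in each, and the log2 fold change was 0.29 ± 0.18 (SE, limma, adjusted p = 0.331). Polr1a and Polr1b, the large subunits of the enzyme, had log2 fold changes of 0.07 and 0.02. Polr1c, a subunit shared with RNA polymerase III, had -0.06, and Tcof1, which encodes the nucleolar protein treacle, had 0.04.

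The box C/D snoRNP, which adds methyl groups to ribosomal RNA, had 1 of 3 proteins called. Fbl (chromosome 7, 28169710 to 28179269) encodes its methyltransferase fibrillarin. The libraries held 104, 103 and 90.7 in circulating, 78.4, 76.0 and 69.1 in irradiated and 56.4, 50.8 and 82.8 in endogenous cells. All 3 circulating libraries were above all others, and endogenous replicate 3 lay above the irradiated libraries. Fbl rose in circulating against endogenous cells by a log2 fold change of 0.67 ± 0.19 (SE, limma, adjusted p = 0.0487), and 4 of 19 alternatives kept the call. The scaffold proteins of the same particle gave 0.23 for Nop56 and -0.27 for Nop58 on the log2 scale, and neither passed. Nop58 was most uneven among endogenous libraries, at 341, 439 and 236.

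The box H/ACA snoRNP, which turns uridine into pseudouridine, showed positive log2 fold changes for all 5 listed genes in circulating against endogenous cells (median 0.47), of which 1 was called. With scaling by library size alone 4 of 5 stayed positive. Nhp2 (chromosome 11, 51619735 to 51623714) encodes one of its core proteins. Its level was 127, 179 and 223 in circulating, 146, 154 and 184 in irradiated and 89.2, 93.8 and 110.1 in endogenous cells. All circulating and irradiated libraries were above all endogenous ones. Nhp2 rose by a log2 fold change of 0.81 ± 0.20 (SE, limma, adjusted p = 0.0315) in circulating against endogenous cells, and 9 of 19 alternatives kept the call. Its exons overlap those of Rmnd5b, and the library chemistry does not mark strand, so reads of these genes may not be separated. In all, 12 members share exon positions with a partner gene (Nhp2, Bop1, Bysl, Wdr12, Imp4, Nop56, Dkc1, Tsr1, Mybbp1a, Rrp9, Gnl3 and Heatr1), and their values are uncertain to that degree. Rmnd5b itself had a log2 fold change of 0.00 in that comparison (limma, adjusted p = 0.996).

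The other core proteins of this particle gave log2 fold changes of 0.47 for Dkc1, the pseudouridine synthase dyskerin (limma, adjusted p = 0.0543), 0.41 for Nop10 (limma, adjusted p = 0.0856) and 0.14 for Gar1. Dkc1 stood at 593, 668 and 666 in circulating, 465, 545 and 637 in irradiated and 408, 524 and 462 in endogenous cells, and its circulating and endogenous libraries did not overlap. Nop10 stood at 232, 246 and 289 in circulating, 246, 272 and 268 in irradiated and 175, 181 and 223 in endogenous cells, with circulating and irradiated cells alike above endogenous ones. Nolc1, a nucleolar chaperone of snoRNPs, had 0.57 ± 0.18 (limma, adjusted p = 0.0735). It stood at 185, 181 and 248 in circulating, 139, 159 and 215 in irradiated and 132, 129.9 and 148 in endogenous cells, highest in circulating replicate 3. Per kilobase of merged exon, Nop10 averaged 214, Dkc1 134, Nhp2 127 and Gar1 27.6.

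The small subunit processome, the large assembly that forms on the precursor RNA as it is made, was the least uniform group. In circulating against endogenous cells 5 of its 10 members had positive and 5 negative log2 fold changes, the median was 0.08 (-0.12 with scaling by library size alone), and 1 was called. Wdr75 (chromosome 1, 45795166 to 45823619), a WD-repeat protein of the early transcription-linked subcomplex, stood at 118, 128 and 123 in circulating, 94.7, 95.7 and 109 in irradiated and 72.5, 99.4 and 78.2 in endogenous cells. Its circulating libraries lay close together and above all others. Wdr75 rose in circulating cells by a log2 fold change of 0.57 ± 0.15 (SE, limma, adjusted p = 0.0422) against endogenous cells, and 9 of 19 alternatives kept the call.

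Members of this assembly that lie furthest apart were weakly expressed. Rrp12, a factor of late precursor maturation and export, had the highest log2 fold change of all members at 1.36 ± 0.50 in circulating against endogenous cells without passing (limma, adjusted p = 0.111). Its values were 27.0, 30.1 and 55.1 in circulating, 8.11, 17.5 and 41.1 in irradiated and 11.2, 10.6 and 19.5 in endogenous cells. Its irradiated libraries ran from below the endogenous range into the circulating range, with replicate 3 highest in each group. Utp20, a large scaffold protein, lay at the other end with -0.79 ± 0.31 (limma, adjusted p = 0.134). The libraries held 12.2, 9.05 and 22.6 in circulating, 25.7, 30.6 and 28.1 in irradiated and 21.8, 22.2 and 29.6 in endogenous cells. Circulating replicate 3 reached the endogenous range and the other 2 circulating libraries did not, and without that library the log2 fold change was -1.13 with an adjusted p of 0.0451 in limma.

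The remaining processome members were not called in that comparison. Heatr1, an early factor linked to RNA polymerase I transcription, had a log2 fold change of -0.39, and Imp3 and Imp4, proteins of the U3 snoRNP, had -0.52 and 0.17. Rrp9, another U3 protein, stood at 32.3, 16.2 and 66.1 in circulating, 40.2, 41.8 and 50.5 in irradiated and 35.0, 27.0 and 43.0 in endogenous cells. Its circulating replicates 2 and 3 were the lowest and the highest of all 9 libraries, so that the log2 fold change was -0.07 ± 0.40. Nat10, the cytidine acetyltransferase of ribosomal RNA, showed the same spread at 70.7, 36.8 and 115 in circulating cells and had a log2 fold change of -0.01. Nop14 and Wdr43, structural factors of the assembly, had 0.19 and 0.36.

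Late in small subunit assembly, 1 of 4 members was called. Ltv1 (chromosome 10, 13178140 to 13193168) encodes a factor that leaves the particle during its last maturation in the cytoplasm. Its level was 127, 154 and 195 in circulating, 117, 129 and 141 in irradiated and 87.7, 117 and 94.1 in endogenous cells. Circulating libraries were all above endogenous ones, and the irradiated libraries bridged them. Ltv1 rose by a log2 fold change of 0.66 ± 0.18 (SE, limma, adjusted p = 0.0445) in circulating against endogenous cells, and 7 of 19 alternatives kept the call. Bysl, which encodes the assembly factor bystin, had 0.77 ± 0.28 without passing (limma, adjusted p = 0.11), at 45.0, 38.4 and 66.1 in circulating, 48.2, 28.1 and 52.5 in irradiated and 23.0, 31.2 and 30.5 in endogenous cells. Nob1, the nuclease of the final cleavage, had 0.05 and varied little between groups. Tsr1, a GTPase-like factor of the late particle, had -0.13, with circulating libraries at 83.3, 62.4 and 157.

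In large subunit assembly none of 7 members was called by limma in circulating against endogenous cells, although all 7 log2 fold changes were positive (median 0.28). Before adjustment 2 of the 7 had a p under 0.05, and voom called none. With scaling by library size alone 6 of 7 stayed positive, at a median of 0.08, and without circulating replicate 3 the median was 0.12. Wdr12, which with Pes1 and Bop1 forms the PeBoW complex of large subunit maturation, stood at 264, 223 and 367 in circulating, 246, 258 and 283 in irradiated and 212, 241 and 236 in endogenous cells. Circulating replicate 3 was the highest library, circulating replicate 2 lay within the endogenous range, and the log2 fold change was 0.28 ± 0.17 (SE, limma, adjusted p = 0.309). Bop1 had 0.46 and Pes1 0.03. Nop2, a cytosine methyltransferase of ribosomal RNA, had 0.42, with no overlap between circulating libraries at 134, 143 and 215 and endogenous libraries at 108, 126 and 126. Rrs1, which helps place the 5S ribonucleoprotein, had 0.88 ± 0.36 on low values (limma, adjusted p = 0.148). Nop16 and Rrp1b, further assembly factors, had 0.26 and 0.27.

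Among the multifunctional nucleolar proteins 2 of 5 were called. Npm1 (chromosome 11, 33152287 to 33163206) encodes nucleophosmin, a histone and ribosome chaperone and the most abundant member per kilobase. It stood at 1105, 997 and 1208 in circulating, 1055, 1012 and 1070.5 in irradiated and 718, 849 and 851 in endogenous cells. All circulating and irradiated libraries were above all endogenous ones. Npm1 rose by a log2 fold change of 0.45 ± 0.11 (SE, limma, adjusted p = 0.0287) in circulating against endogenous cells, and 11 of 19 alternatives, more than for any other called member, kept the call.

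Ncl (chromosome 1, 86344719 to 86359400) encodes nucleolin, an RNA-binding protein of nucleolar chromatin. Its values were 1408, 1175 and 1611 in circulating, 955, 1035 and 1269.7 in irradiated and 883, 963 and 1064 in endogenous cells. Circulating libraries were above all endogenous ones, and irradiated replicate 3 reached above circulating replicate 2. Ncl rose by a log2 fold change of 0.52 ± 0.14 (SE, limma, adjusted p = 0.0442) in circulating against endogenous cells, a call kept by 7 of 19 alternatives. Ddx21, an RNA helicase of the nucleolus, stood at 103, 89.3 and 140.0 in circulating, 75.6, 88.6 and 111 in irradiated and 58.8, 62.6 and 103 in endogenous cells. Endogenous replicate 3 was far above the other 2 endogenous libraries, and the log2 fold change of 0.58 ± 0.24 did not pass (limma, adjusted p = 0.155). Gnl3, the GTPase nucleostemin, had 0.37 with circulating libraries all above endogenous ones, and Mybbp1a, a nucleolar co-regulator, had -0.04.

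No member passed the test between circulating and irradiated cells. Limma called none of the 41, against 0.029% of all genes, voom called none either, and no alternative setting or left-out library called any. Before adjustment 1 member was higher and 2 were lower at a p under 0.05, and the lowest adjusted p was 0.308. The median log2 fold change was 0.08 over the members and -0.02 over all genes, and became -0.04 over the members without circulating replicate 3 and 0.014, with 22 of 41 positive, with scaling by library size alone. The libraries did not overlap with circulating cells higher for 2 members (4.88%), against 7.46% of all genes, and lower for 2 (4.88%), against 9.26% of all genes. Those higher were Fbl and Wdr75, with log2 fold changes of 0.41 and 0.30. Those lower were Mycn and Utp20, with -0.89 and -0.99 (limma, adjusted p = 0.349 and 0.308).

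Irradiated cells lay above endogenous cells for most members without any member passing the test. Limma called none of the 41 in this comparison, against 0.603% of all genes, voom called none, and 3 members were higher and 0 lower at an unadjusted p under 0.05. The median log2 fold change was 0.19 over the members and -0.01 over all genes, 32 of 41 members had a positive value, and without irradiated replicate 3 the median was 0.07. With scaling by library size alone 26 of 41 members were positive, their median was 0.060, and the median of all genes shifted by -0.12. Libraries did not overlap with irradiated cells higher for 8 members (19.5%), against 15.2% of all genes, and with irradiated cells lower for 0 members, against 12.5% of all genes. The largest values among those near the threshold were 0.72 ± 0.20 for Nhp2 (limma, adjusted p = 0.122), 0.44 ± 0.14 for Nop10 (limma, adjusted p = 0.155) and 0.38 ± 0.11 for Npm1 (limma, adjusted p = 0.128). Fitted without the circulating libraries, Nhp2 and Npm1 passed in limma, with adjusted p-values of 0.0193 and 0.041. These 2 are 4.88% of the members, and that fit called 757 of all 13771 genes, or 5.5%. This comparison and the first share the endogenous libraries, so their values are not independent.

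Much of the variation of the 39 ribosome biogenesis members ran between libraries of one group. A library's mean deviation was taken as the average, over these 39 genes, of its log2 value minus the gene's mean over all 9 libraries. It was -0.02, -0.09 and 0.43 in circulating libraries, -0.10, -0.01 and 0.25 in irradiated libraries and -0.23, -0.18 and -0.04 in endogenous libraries. Replicate 3 was thus the highest library in each group, and the group means were 0.11 ± 0.28 in circulating cells, 0.05 ± 0.18 in irradiated cells and -0.15 ± 0.10 in endogenous cells (SD, n = 3 each). Circulating replicate 3 held the highest value of all 9 libraries in 23 of the 41 members, and irradiated replicate 3 was the highest irradiated library in 32. Endogenous replicate 1 was the lowest of all 9 libraries in 15 members. Over the 741 pairs of the 39 genes the median Pearson r across the 9 libraries was 0.47, and after removing group means it was 0.53. These correlations describe genes that share libraries, depth and scaling.

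**Figure D4:**
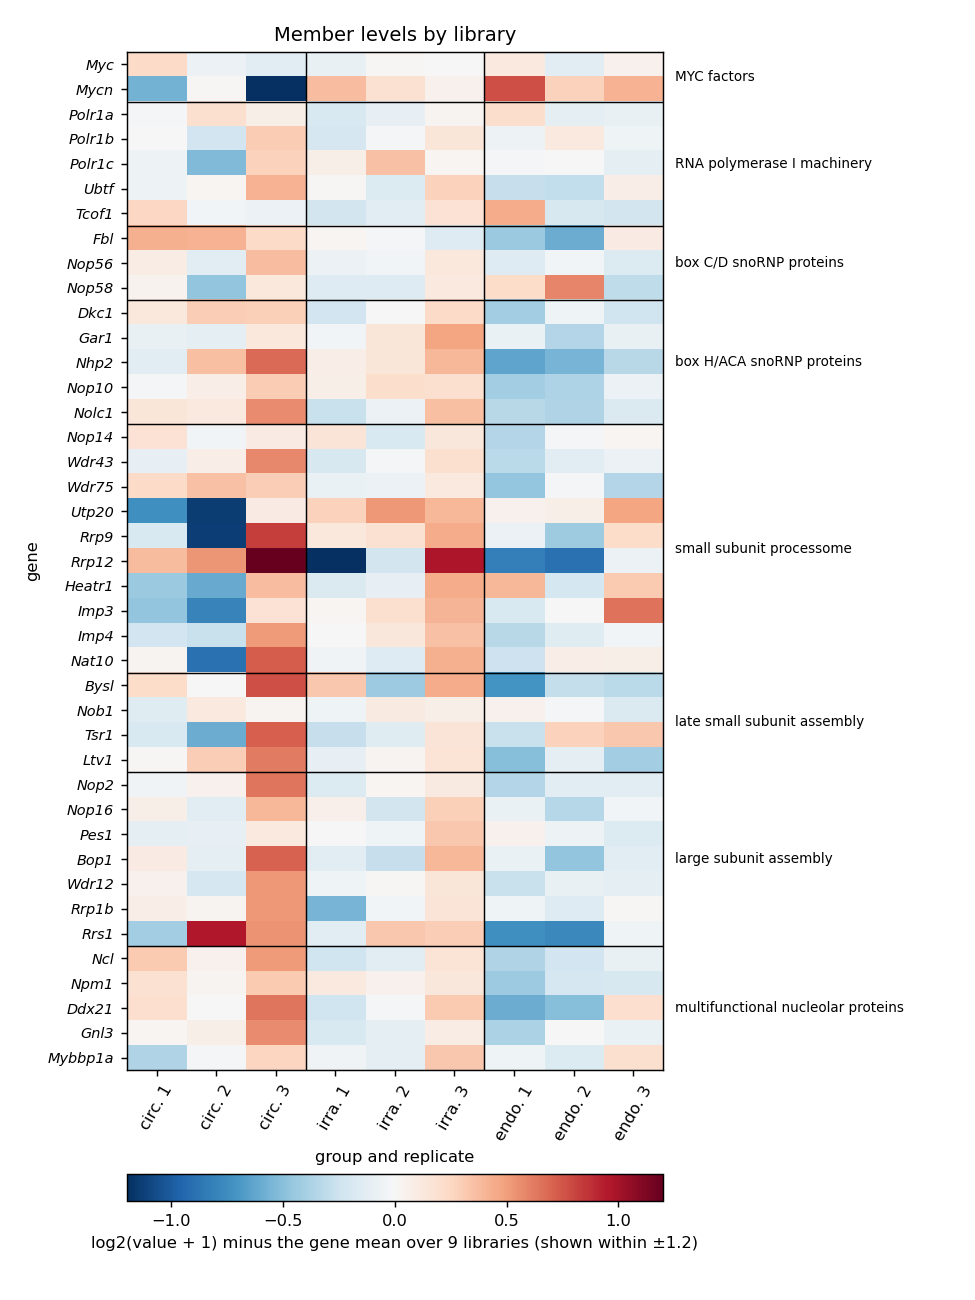
Log2(value + 1) minus each gene's mean over the 9 libraries, in colour from blue (lower) to red (higher), with colour limits at 1.2 either way, for the 41 members (down the page, by role) in the circulating, irradiated and endogenous libraries (across). The column of circulating replicate 3 is red for most members (mean deviation 0.43 over the 39 ribosome genes) and blue for Mycn, while the columns of endogenous replicates 1 and 2 are blue for most.

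The heat map shows circulating replicate 2 as the most uneven column, blue for Utp20, Rrp9, Nat10 and Imp3 and red for Rrs1. Without circulating replicate 3 the members' median log2 fold change against endogenous cells was 0.12, with 0 members called higher and 1, Utp20, called lower by limma.

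Further genes of the same processes, 131 listed and 125 of them measured, were examined beside the members. Of these 125, 8 rose in circulating against endogenous cells, 6.4%, against 5.33% of all genes called higher, and 117 were not called. Their median log2 fold change was 0.27 and 105 were positive. With scaling by library size alone 2 were called higher and 1 lower, the median was 0.065, and 76 were positive, and without circulating replicate 3 the median was 0.18. Among 41 small subunit genes 2 rose, Bud23, a methyltransferase of small subunit RNA (log2 fold change 0.88, limma, adjusted p = 0.0143), and Pno1, a partner of Nob1 (0.78, limma, adjusted p = 0.0297). Among 53 large subunit genes 4 rose, with the largest values for Tma16 (0.79), Rpf2 (0.60) and Ebna1bp2 (0.56). Among 19 genes of the exosome and other nucleases 2 rose, Exosc8 and Exosc3 (0.69). Exosc8, a core subunit of the RNA exosome that trims precursor RNA, stood at 207, 246 and 243 in circulating, 157, 153 and 188 in irradiated and 118, 130.0 and 108 in endogenous cells. Its 3 groups did not overlap at all, and its log2 fold change was 0.96 ± 0.14 in circulating against endogenous cells (SE, limma, adjusted p = 0.00584). Without circulating replicate 3, limma called 1 higher and 1 lower among the small subunit genes, none among the large subunit genes and 1 higher among the nuclease genes. None of 13 further RNA polymerase I genes was called by limma, voom called none, and 1 had an unadjusted p under 0.05.

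Genes known as MYC targets outside the nucleolus formed a further list. Of its 30 genes 7 rose in circulating against endogenous cells and 23 were not called, with a median log2 fold change of 0.44 (0.23 with scaling by library size alone, and 0.30 with 2 called without circulating replicate 3). In the fit as reported, the 7 make up 23.3% of the list, against 5.33% of all genes called higher, and the median over all genes was -0.04. That 5.33% is not the background of the 2 called without circulating replicate 3. The largest among the 7 called were Phb2, a prohibitin of mitochondria (0.86, limma, adjusted p = 0.0332), Ran, the GTPase of nuclear transport (0.71, adjusted p = 0.0079), and Hspe1, a mitochondrial co-chaperone (0.68, adjusted p = 0.0451). Ran stood at 1024, 1111 and 1318 in circulating, 1113, 1035 and 1198 in irradiated and 670.4, 689 and 746 in endogenous cells. Ran and Ldha, a lactate dehydrogenase, were also the 2 pathway genes called in irradiated against endogenous cells, at log2 fold changes of 0.67 and 0.70 (limma, adjusted p = 0.0245 for each). These 2 are 1.17% of the 171 further pathway genes, against 0.603% of all genes called in that comparison. Between circulating and irradiated cells limma and voom called none of the 171 further pathway genes, and 21 had an unadjusted p under 0.05 in limma.

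Other cell programmes differed between the same groups, and their part in the members' differences was not tested. Beside the counts that follow, 5.33% of all genes were called higher and 3.3% lower in circulating against endogenous cells. Of 15 mitotic and G2/M genes 12 rose in circulating against endogenous cells (median log2 fold change 1.01), and their summed level was 3277 to 5134 in circulating, 3308 to 4033 in irradiated and 2090 to 2293 in endogenous libraries. Of 14 genes of G1/S and replication 7 rose (median 0.50), and their sums were 5245 to 6069, 4928 to 5706 and 3886 to 4129 in the same order. Without circulating replicate 3 these lists had 7 and 4 genes called higher. The 5.33% belongs to the fit as reported and is not the background of these 2 counts. Leaving out single libraries gave 257 to 2224 called genes in all. Of 9 tested genes of granulocyte and monocyte progenitors 6 rose (median 3.14), with sums of 12933 to 39215 in circulating, 7695 to 16228 in irradiated and 2166 to 3090 in endogenous libraries. Of 9 stem cell associated genes 5 fell (median -0.95), with sums of 366 to 526, 654 to 670 and 956 to 1174 in that order. Of 8 erythroid genes 2 rose, with sums of 241 to 973, 235 to 635 and 224 to 261, and neither was called without circulating replicate 3. Markers of mature or other lineages moved in both directions: 2 of 7 tested B lineage genes rose (sums of 107 to 317, 84.0 to 108 and 75.3 to 108), 1 of 6 T and NK genes rose (618 to 960, 605 to 703 and 332 to 390), and 1 of 4 dendritic genes rose (83.7 to 231, 77.4 to 89.8 and 58.5 to 96.5). In the same order of groups, 1 of 6 mast and basophil genes rose (163 to 802, 223 to 350.3 and 173 to 205), 2 of 8 neutrophil genes fell (1184 to 1822, 822 to 2048 and 1119 to 2337) and 1 of 6 megakaryocyte genes fell (116 to 305, 273 to 343 and 325 to 481). Of 2 measured endothelial and stromal genes 1 fell.

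**Figure D5:**
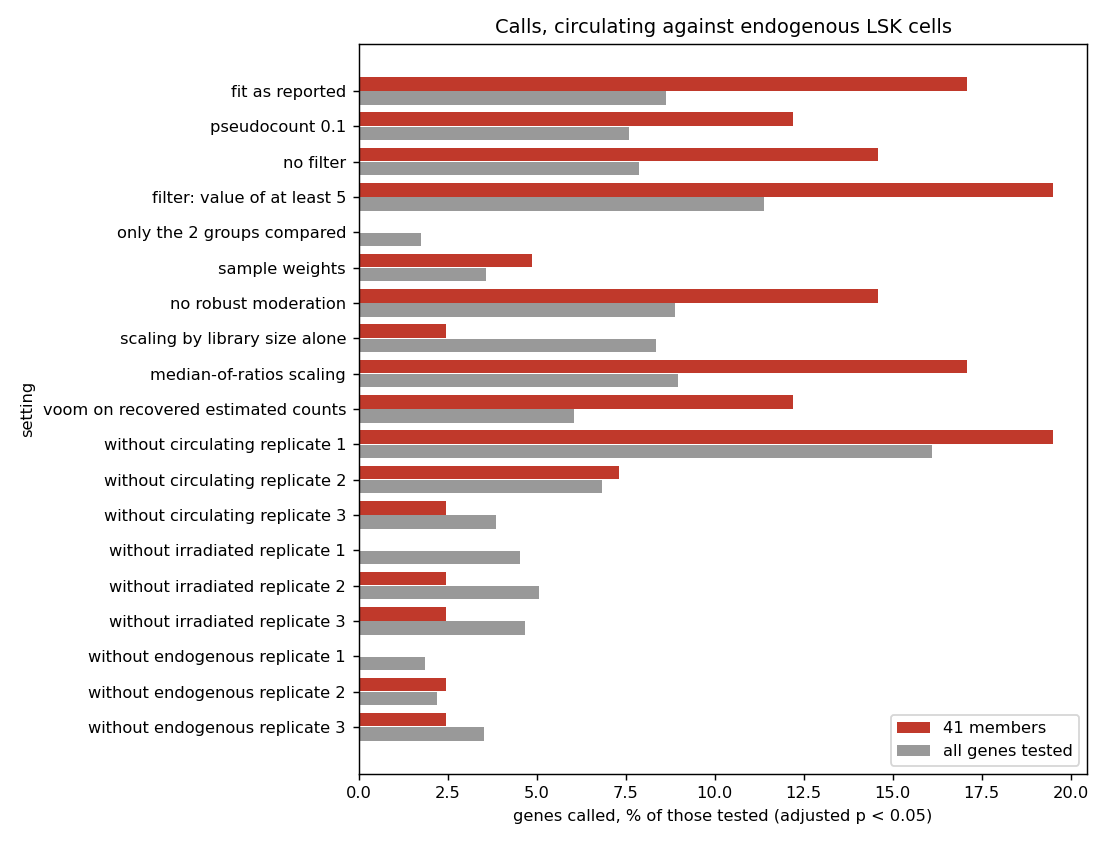
Share of the 41 members and of all tested genes called in circulating against endogenous cells (per cent, horizontal axis, adjusted p under 0.05) under the fit as reported and each alternative setting or left-out library but the replicate block (down the page). The replicate block is not drawn. The members' share is 17.1% as reported, 0% when only the 2 groups were fitted and 2.44% with scaling by library size alone.

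The plot of calls by setting shows the members' share above that of all genes under most changes of filter, scaling and fit, but not when only the 2 groups were fitted or with scaling by library size alone, and below it without most of the single libraries. Members called fell to 3 of 41 without circulating replicate 2 and to 1 without circulating replicate 3, against 8 without circulating replicate 1. Leaving out endogenous replicates 1, 2 and 3 left 0, 1 and 1 called, and leaving out irradiated replicates 1, 2 and 3, which are no part of this comparison, also left 0, 1 and 1. Each of the 7 called members kept the sign of its log2 fold change in all 19 alternatives, and none was called in all of them.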

How the data were processed

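RNA from 9 libraries of sorted LSK cells was isolated with a low-input kit, amplified with SMART-Seq v4 and prepared with Nextera XT, per the labels' protocols, a chemistry that does not mark strand. The submitters' processing notes name CASAVA, RSEM 1.3.1, limma and mm10 without role or order, and aligner, annotation release, scaling and filter were not given in the sources used here. As deposited by the authors, the table holds a normalised signal for 14461 Ensembl genes, and its form (a number with 2 decimals + 0.5, times a constant per library, in 100% of values at a tolerance tighter than 0.001) allowed estimated counts to be recovered, of which 11.0 to 21.3% per library were whole within a tolerance of 0.001, so that no count test was used as the main one. Depths describe counting error only, since amplified reads that carry no molecular identifiers do not count molecules, while the 95% intervals of fold changes are limma's and cover the spread between libraries.

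Groups came from the source labels. Log2(value + 1) was fitted with limma 3.58.1 (R 4.3.3), with a mean-variance trend, robust moderation, all 9 libraries and no covariates, on the 13771 genes with a value of at least 1 in at least 3 libraries. The Benjamini-Hochberg adjustment ran over all tested genes, with calls under 0.05. Fold changes refer to log2(value + 1) and understate changes of low genes. The fit was tested on simulated data. Alternatives were a pseudocount of 0.1, no filter, a minimum of 5, only the groups compared, sample weights, no robust moderation, 2 other scalings, voom on recovered counts, a replicate block and leaving out each library.

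The members and all gene lists were chosen with earlier results of these data known. Named genes were Myc, Mycn, all called members, for each role group the called member of largest fold change or else the one of highest mean value, and at most 3 called genes of each further list. Other members are given as values, chosen after their values were seen, as is Mycl. Symbols came from GENCODE M21 (GRCm38, the assembly mm10 names): 14405 IDs matched, 56 did not, and 4 listed symbols had no match. Exon lengths for values per kilobase are merged exons of that release, and promoter windows are from RefSeq.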

Additional observations from a re-analysis of the deposited data

How the results depend on the processing

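With 3 libraries per group and adjusted p-values near 0.05, small changes of the fit move calls, and genes at low values (Rrp12, Rrs1, Utp20, Mnt, Mycl) carry wide errors. Wide errors also occur at higher values. In circulating against endogenous cells the SE was 0.334 for Nat10 and 0.316 for Mycn, against 0.312 for Utp20. For members and called further pathway genes, no log2 fold change switched sign between the reported fit and an alternative if either called the gene. The balance of calls did move. With scaling by library size alone, calls over all genes in circulating against endogenous cells became 337 higher and 816 lower, in place of 734 and 455. In circulating against endogenous cells 7 members, 18 further pathway genes and 1189 genes in all were called. Fitting only the 2 groups gave 0, 3 and 239, sample weights gave 2, 7 and 494, and scaling by library size alone gave 1 member and 8 further pathway genes (4 higher, 4 lower) with a member median log2 fold change of 0.060. In circulating against irradiated cells no setting called a member, and the 4 calls over all genes became 13 with a minimum value of 5, 11 with library size scaling and 8 with voom. In irradiated against endogenous cells 0 members, 2 further pathway genes and 83 genes in all became 2, 8 and 757 with only the 2 groups and 3, 15 and 897 with sample weights, and a minimum value of 5 gave 138 genes in all. Fewer libraries enter a 2-group fit, by construction. These shifts ran in both directions. The reported fit takes a single spread per gene from all libraries. On the log2 scale the median SD over all genes was 0.21 among irradiated, 0.26 among endogenous and 0.38 among circulating libraries. Sample weights were 1.62 to 1.78 for irradiated and 0.44 to 0.57 for circulating libraries, with endogenous ones between. In both comparisons with endogenous cells, these weights moved the calls over all genes the same way as the 2-group fit. How far unequal spread accounts for the shifts was not tested. Leaving out single libraries gave, in circulating against endogenous cells, 0 to 8 members, medians of 0.12 to 0.39, 4 to 37 further pathway genes and 257 to 2224 genes in all. The same gave, in circulating against irradiated cells, 0 members, medians of -0.04 to 0.19, 0 to 1 further pathway genes and 3 to 137 genes in all, and in irradiated against endogenous cells 0 to 1 members, medians of 0.07 to 0.23, 0 to 5 further pathway genes and 6 to 263 genes in all. The extremes over all genes came without circulating replicate 1 (2224, 137 and 263) and, at the low end, without endogenous replicate 1 (257 and 6) or irradiated replicate 3 (6). Same-numbered libraries of different groups deviated together only weakly (r from -0.02 to 0.18), and a library correlated best with its own number in 9 of 18 cases. The labels do not say what the title code common to same-numbered circulating and irradiated libraries stands for, so pairing was used only as an alternative. A replicate block gave 10 members called in circulating against endogenous cells and 0 in each other comparison, and 9 genes in all in circulating against irradiated cells, or 2 with the block and only the 2 groups. Endogenous libraries do not carry that common code, so the block matched them to the others by replicate number alone, for which the labels give no ground. This block is counted among the alternatives that kept or lost a call.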
